A study of Homo sapiens with 12 samples.

Results

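10 genes of the Wnt signaling pathway were followed through RNA sequencing (RNA-seq) of A375 melanoma cells: the ligand gene WNT5A, the secreted inhibitor gene DKK1, the cytoplasmic inhibitor genes AXIN1, AXIN2 and NKD1, the receptor-removing genes ZNRF3 and RNF43, and the transcription factor genes LEF1, TCF7 and TCF7L2. These 10 members were chosen by name, and all of them were found among the 58347 genes in the files. A375 is an established human melanoma cell line that carries mutant BRAF. The 12 samples were single libraries of this line, 3 for each of 4 groups that differed only in treatment: DMSO vehicle, tretinoin, vemurafenib, and vemurafenib + tretinoin (the combination), collected after 8 h, with 5 µM listed for every group. Vemurafenib blocks mutant BRAF, the kinase at the top of the ERK cascade in these cells, and tretinoin (all-trans retinoic acid) activates the nuclear retinoic acid receptors. The labels do not say how the 5 µM was divided in the combination, nor whether replicates came from separate cultures, so the p-values measure the spread between these samples, which may be technical.

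Wnt ligands bind Frizzled receptors and LRP co-receptors at the cell surface. In the canonical branch this stops a cytoplasmic complex built on AXIN1 or AXIN2 from destroying beta-catenin, which then enters the nucleus and works with TCF/LEF factors. Several targets of beta-catenin feed back on the pathway: AXIN2 rebuilds the destruction complex, NKD1 acts on Dishevelled, ZNRF3 and RNF43 remove Frizzled from the membrane, and DKK1 blocks the LRP co-receptors. WNT5A acts mostly through beta-catenin-independent signaling and is known in melanoma for its association with invasive, therapy-tolerant cell states.

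The total count per library lay between 13510235 and 21534377. Levels are given as CPM (counts scaled to a common library total) after TMM normalization. TMM scales the libraries on the assumption that most genes do not change between them, which was not tested here. Of all genes, 16740 had enough counts to be tested, and 8 of the 10 members were among them. AXIN2 and RNF43 were not. Treatment was checked first on a gene for each drug. DUSP6, a phosphatase gene driven by ERK, had between 1719 and 2313 counts in each library without vemurafenib and between 27 and 51 in each library with it. RARB, a retinoic acid receptor gene that retinoids induce, had 19 to 27 counts with DMSO, 35 to 47 with tretinoin, 133 to 209 with vemurafenib and 321 to 543 with the combination, and its difference between tretinoin alone and DMSO did not pass the test (adjusted P = 0.101). Of 7 melanocyte lineage markers, 3 passed the count filter (MITF, with 245 to 658 counts per library, S100B, with 84 to 206, and PMEL, with 8 to 25), and SOX10 was listed at 0 in every library, and 2.40% of its annotated exon bases lie under exons of POLR2F on the other strand. The summed level of these markers was 24.0 to 30.8 CPM without vemurafenib and 38.0 to 44.0 CPM with it, a rise that was mostly that of MITF. The mean of MITF was 17.6 CPM with DMSO and 32.4 CPM with vemurafenib, that of S100B 9.08 and 9.22, and that of PMEL 1.16 and 0.790. Keratinocyte and epithelial markers (2 of 4 passed) summed to 10.0 to 16.8 CPM without vemurafenib and 26.7 to 36.0 CPM with it, mostly from KRT14. Leukocyte markers (2 of 4 passed) summed to between 3.69 and 8.94 CPM in all libraries. Mean PTPRC was 1.11 CPM with DMSO, 3.03 with tretinoin, 2.80 with vemurafenib and 3.74 with the combination. Mean LYZ was 3.10, 3.80, 2.76 and 2.85 CPM in the same order. Endothelial markers (3 of 3 passed) summed to 5.28 to 6.55 CPM with DMSO, 12.7 to 17.2 CPM with tretinoin, 2.40 to 3.17 CPM with vemurafenib and 5.34 to 6.20 CPM with the combination. The endothelial sum mostly followed CDH5, with means of 4.56 CPM with DMSO, 13.4 with tretinoin, 0.137 with vemurafenib and 3.15 with the combination. With vemurafenib relative to DMSO, PECAM1 also went down (0.960 to 0.522 CPM), whereas VWF went up (0.482 to 2.08 CPM). These markers moved with treatment, not all in the same direction within a list, and their part in the results below was not tested. In RNA from whole cultures, fewer cells of a kind and less RNA per cell cannot be told apart.

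Before the comparisons, the levels themselves differed over a wide range. Per kilobase of exon, DMSO-treated cells held 66.6 ± 4.52 CPM of DKK1 (SD, n = 3), 13.2 ± 0.456 of AXIN1, 8.22 ± 0.387 of WNT5A, 5.27 ± 0.166 of LEF1, 5.16 ± 0.444 of TCF7L2, 2.29 ± 0.268 of ZNRF3, 0.497 ± 0.0602 of TCF7, 0.0908 ± 0.0219 of NKD1, 0.0354 ± 0.00447 of AXIN2 and 0.0134 ± 0.00413 of RNF43. Among neighbors in this order, the libraries overlapped only for LEF1 and TCF7L2. Thus an inhibitor gene, DKK1, was the most abundant member, whereas 3 feedback genes (NKD1, AXIN2 and RNF43) were the scarcest. The first 3 places and the sixth and seventh, ZNRF3 and TCF7, were held by the same genes in all 4 groups. In each drug group TCF7L2 stood above LEF1 per kilobase without overlap, and with vemurafenib AXIN2 (0.0690 ± 0.0288 CPM per kilobase) and NKD1 (0.0431 ± 0.0113) overlapped, as did NKD1 and RNF43 (0.0331 ± 0.00799). With the combination, AXIN2 (0.0791 ± 0.0267) and NKD1 (0.0622 ± 0.0115) overlapped.

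**Figure D1:**
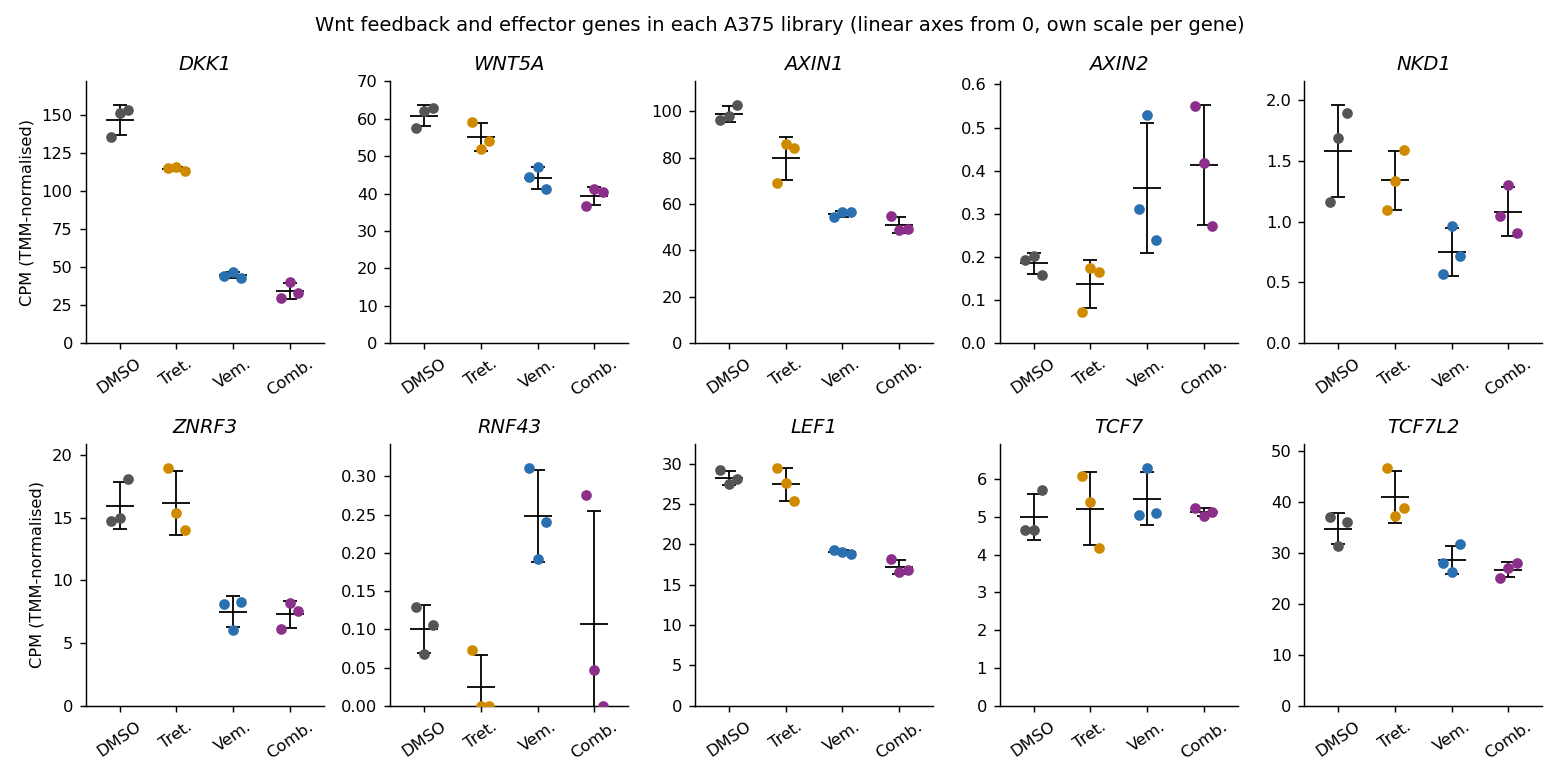
TMM-normalized CPM (linear axis from 0, with a scale of its own for each gene) of the 10 members in each library: points are the 3 libraries of a group, horizontal bars the mean and error bars the SD (cut at 0 for RNF43). DKK1 falls from between 135.5 and 153.8 CPM with DMSO to between 29.82 and 40 CPM with the combination, whereas the TCF7 libraries of all groups lie between 4.163 and 6.303 CPM.

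Vemurafenib relative to DMSO addresses what BRAF inhibition did to these genes. Of the 8 members tested, 7 were significantly lower with vemurafenib (edgeR quasi-likelihood test, Benjamini-Hochberg adjusted P below 0.05 over all genes tested), 0 were higher, and TCF7 was not called. Among all genes tested, 26.3% were called lower and 26.4% higher in this comparison. With libraries scaled by total counts alone, these shares were 15.7% and 39.3%, and 6 members were lower and 0 higher. The median log2 fold change was -0.70 over the 8 members and 0.02 over all genes. The combination relative to DMSO gave 6 members lower and 0 higher, with 26.5% of all genes lower and 27.1% higher (17.4% and 37.3% under total-count scaling, with 5 members lower), and a median of -0.67 over the members and 0.03 over all genes. NKD1 was the member called with vemurafenib and not with the combination. These comparisons share the DMSO libraries, and each of the others shares a group with them. The share of genes called lower with vemurafenib increased with the level of the gene, from 6.31% in the lowest of 4 equal bins by mean CPM (which holds NKD1) through 19.0% in the second (TCF7 and ZNRF3) and 32.4% in the third (LEF1, TCF7L2 and WNT5A) to 47.4% in the highest (AXIN1 and DKK1).

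Tretinoin alone relative to DMSO moved fewer members. The members DKK1 and AXIN1 were lower (2 of 8) and 0 were higher, where 2.20% of all genes were called lower and 3.48% higher (1.04% and 4.53% under total-count scaling, with 0 members lower). The combination relative to vemurafenib, that is, tretinoin added to BRAF inhibition, gave 1 member lower (DKK1) and 0 higher, where 2.20% of all genes were lower and 2.27% higher. The combination relative to tretinoin, or vemurafenib added to the retinoid, gave 6 members lower and 0 higher, where 25.0% of all genes were lower and 24.1% higher (19.5% and 30.2% under total-count scaling, again with 6 members lower). The interaction of the drugs, defined as the change from vemurafenib to the combination minus the change from DMSO to tretinoin on the log2 scale, was not significant for any of the 8 tested members, where 0.424% of all genes had a negative and 0.382% a positive interaction (0.789% and 0.215% under total-count scaling). DESeq2 also called 0 members for the interaction, and 1 member (TCF7L2) had an unadjusted P below 0.05 in edgeR.

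**Figure D2:**
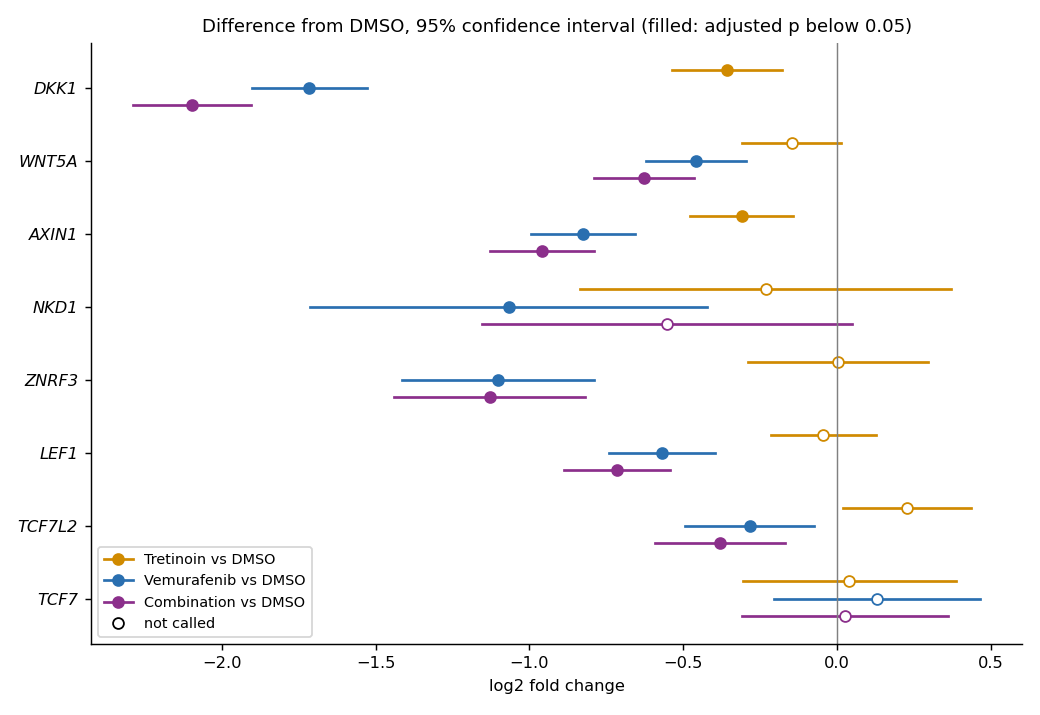
Log2 fold change relative to DMSO (horizontal axis) of the 8 tested members with tretinoin, vemurafenib and the combination, with lines for the 95% confidence interval and filled points for adjusted P below 0.05. With vemurafenib 7 of the 8 points are filled, all on the negative side, and TCF7 is the open one.

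DKK1 encodes a secreted protein that binds LRP5 and LRP6 and so inhibits canonical Wnt signaling (ENSG00000107984.9, chr10:52314296-52318042 of GRCh38, plus strand, GENCODE 29). Exons of PRKG1-AS1 on the other strand cover 9.61% of its exon bases. Its level was 135.5, 151.4 and 153.8 CPM in the DMSO libraries, 115.3, 115.8 and 113.1 CPM with tretinoin, 43.89, 47.05 and 43.14 CPM with vemurafenib, and 29.82, 40 and 32.96 CPM with the combination. The 4 groups did not overlap, in the order DMSO, tretinoin, vemurafenib, combination from high to low. DKK1 fell with vemurafenib (log2 fold change -1.72, SE 0.09, adjusted P = 4.96e-11, or 3.28-fold lower) and with the combination (-2.10, SE 0.09, adjusted P = 3.33e-12, or 4.28-fold lower). It was the member with the largest change in both, and the sole member lower with the combination than with vemurafenib alone (-0.38, SE 0.09, adjusted P = 0.0183). Relative to DMSO, tretinoin alone lowered it by a similar step (-0.36, SE 0.09, adjusted P = 0.0198), and the interaction was -0.03 (95% confidence interval -0.29 to 0.24, adjusted P = 0.942). The tretinoin call was lost under total-count scaling and without DMSO replicate 2, DMSO replicate 3 or tretinoin replicate 2, and the call relative to vemurafenib without vemurafenib replicate 1 or 2 or combination replicate 1 or 3. Over all alternatives the log2 fold change stayed between -0.41 and -0.28 for the first (adjusted P 0.0018 to 0.098) and between -0.51 and -0.29 for the second (adjusted P 0.0022 to 0.11).

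The promoter of DKK1 is shown because DKK1 was the most abundant member and changed most. The window (RefSeq, GRCh38.p14, chr10:52314031-52314330, plus strand, 250 bases before to 50 after the annotated start) is printed 5′ to 3′ with capitals for a TCF/LEF core match, CTTTGAA, 95 bases before the start and a TATA box match, TATAAA, 30 bases before it:
DKK1: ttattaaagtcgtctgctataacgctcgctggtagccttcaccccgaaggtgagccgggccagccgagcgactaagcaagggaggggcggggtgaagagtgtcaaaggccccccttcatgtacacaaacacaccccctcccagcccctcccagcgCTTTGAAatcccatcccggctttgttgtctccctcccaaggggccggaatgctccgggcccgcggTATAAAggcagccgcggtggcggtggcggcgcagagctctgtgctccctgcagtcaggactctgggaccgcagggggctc
In 35116 promoter windows of the same length, CTTTGAA on either strand was found in 4.43% and TATAAA on the forward strand in 7.33%. The other letters searched on both strands, CTTTGAT (TCF/LEF core, in 2.62% of windows), TGAGTCA (AP-1, in 4.95%) and CCGGAAG (ETS core, in 10.3%), were not in this window. Promoter windows were matched for 7 of the 10 members (12 windows), and 8 of these windows held no match to any of the letters.

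AXIN1 encodes the scaffold of the beta-catenin destruction complex (ENSG00000103126.14, chr16:287440-352673, minus strand). Its level was 96.15, 98.08 and 102.8 CPM with DMSO, 69.13, 86.07 and 84.08 CPM with tretinoin, 54.28, 56.63 and 56.60 CPM with vemurafenib, and 54.86, 48.73 and 49.30 CPM with the combination. All tretinoin libraries lay below all DMSO libraries, both vemurafenib-containing groups lay below these, and the vemurafenib and combination groups overlapped. AXIN1 fell with vemurafenib (-0.83, SE 0.08, adjusted P = 1.58e-07, or 1.77-fold lower) and with the combination (-0.96, SE 0.08, adjusted P = 2.32e-08, or 1.94-fold lower). With tretinoin alone it was 1.24-fold lower than with DMSO (-0.31, SE 0.08, adjusted P = 0.0295). That call was lost without any one of the 3 DMSO replicates or tretinoin replicate 1, which stood lowest, under total-count scaling, with the replicate block (-0.31, adjusted P = 0.0544) and with only the groups compared in the fit. Over the 14 alternatives its values lay between -0.37 and -0.21 (adjusted P 0.0082 to 0.17). The combination did not pass the test relative to vemurafenib (-0.13, 95% confidence interval -0.30 to 0.04, adjusted P = 0.525).

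The AXIN1 promoter window is shown as that of the other member called with each single drug (RefSeq, GRCh38.p14, chr16:352674-352973, minus strand). Capitals mark CTTCCGG, the reverse complement of the ETS core CCGGAAG, 226 bases before and 1 base after the annotated start:
AXIN1: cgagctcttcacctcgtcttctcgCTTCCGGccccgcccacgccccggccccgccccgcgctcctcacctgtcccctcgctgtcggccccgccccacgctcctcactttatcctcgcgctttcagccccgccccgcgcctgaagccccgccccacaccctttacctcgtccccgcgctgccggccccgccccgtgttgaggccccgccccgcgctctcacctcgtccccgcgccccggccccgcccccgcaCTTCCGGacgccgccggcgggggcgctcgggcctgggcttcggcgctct
This window held none of the TCF/LEF, AP-1 or TATA letters. Its G and C content was 78.0%, compared with 63.7% for DKK1. The matches are a description of the letters only.

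ZNRF3 and RNF43 encode related membrane E3 ubiquitin ligases that clear Frizzled receptors and are themselves held back by R-spondins and LGR receptors. ZNRF3 (ENSG00000183579.15, chr22:28883592-29057487, plus strand) was at 14.76, 15.0 and 18.1 CPM with DMSO, 18.99, 15.4 and 14.02 CPM with tretinoin, 8.102, 6.062 and 8.292 CPM with vemurafenib, and 6.108, 8.177 and 7.561 CPM with the combination. Every library with vemurafenib was below every library without it, whereas DMSO and tretinoin overlapped, as did vemurafenib and the combination. ZNRF3 fell 2.15-fold with vemurafenib (-1.10, SE 0.15, adjusted P = 7.84e-06) and 2.19-fold with the combination (-1.13, SE 0.15, adjusted P = 5.1e-06). Tretinoin gave no significant difference alone (0.00, 95% confidence interval -0.29 to 0.30, adjusted P = 0.992) or on top of vemurafenib (-0.03, -0.36 to 0.31, adjusted P = 0.975).

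RNF43 (ENSG00000108375.12, chr17:58352500-58417595, minus strand) had few counts, with raw counts of 2, 1 and 2 in the DMSO libraries, 1, 0 and 0 with tretinoin, 6, 4 and 4 with vemurafenib, and 5, 1 and 0 with the combination. The vemurafenib libraries were all above the DMSO libraries, but on totals of 14 and 5 counts. In a fit without the count filter, the difference did not pass the test (adjusted P = 0.515). Annotated exons of other genes cover much of RNF43. In GENCODE 29, AC004687.2 on the same strand, a gene absent from the deposited counts, covers 57.6% of its exon bases. TSPOAP1-AS1 on the other strand covers 20.3% and SUPT4H1 1.91%, and both are in the deposited counts. Fragments over exons of a second counted gene were assigned to neither.

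AXIN2 and NKD1 are widely used as readouts of beta-catenin activity. AXIN2 (ENSG00000168646.12, chr17:65528563-65561647, minus strand) had 3 counts in each DMSO library, 1, 3 and 3 with tretinoin, 6, 11 and 4 with vemurafenib, and 10, 9 and 6 with the combination. The counts with vemurafenib and with the combination were therefore higher than in every library without vemurafenib, at a level of 0.360 ± 0.151 CPM and 0.413 ± 0.139 CPM (SD, n = 3) relative to 0.185 ± 0.0234 CPM with DMSO. In the fit without the count filter this was not significant for vemurafenib (0.96, 95% confidence interval -0.38 to 2.29, adjusted P = 0.442) or the combination (1.12, -0.18 to 2.43, adjusted P = 0.297), and relative to tretinoin the combination had an unadjusted P of 0.0328 (adjusted P = 0.141). Exons of AC004805.1 on the same strand, itself at 0 counts, cover 25.2% of the AXIN2 exon bases.

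NKD1 (ENSG00000140807.6, chr16:50548330-50649249, plus strand) encodes an inhibitor that binds Dishevelled. Its level was 1.160, 1.689 and 1.900 CPM with DMSO, 1.1, 1.337 and 1.588 CPM with tretinoin, 0.5713, 0.9622 and 0.7211 CPM with vemurafenib, and 1.045, 1.301 and 0.9055 CPM with the combination, on 11 to 36 counts per library. The vemurafenib libraries lay below all DMSO and tretinoin libraries, and the combination overlapped both DMSO and vemurafenib. NKD1 was 2.10-fold lower with vemurafenib (-1.07, SE 0.31, adjusted P = 0.00726). The combination did not pass the test relative to DMSO (-0.55, 95% confidence interval -1.16 to 0.05, adjusted P = 0.112) or to vemurafenib (0.52, -0.15 to 1.18, adjusted P = 0.522), so that a difference between both treatments was not shown. The interaction was 0.75 (-0.15 to 1.64, adjusted P = 0.399).

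The 3 TCF/LEF genes, whose proteins bring beta-catenin to DNA, did not share one pattern. LEF1 (ENSG00000138795.9, chr4:108047545-108168956, minus strand) was at 29.19, 27.43 and 28.13 CPM with DMSO, 29.47, 27.55 and 25.36 CPM with tretinoin, 19.27, 19.0 and 18.87 CPM with vemurafenib, and 18.21, 16.54 and 16.89 CPM with the combination. Vemurafenib-treated libraries were below all libraries without the drug, and those with the combination were lowest. LEF1 fell with vemurafenib (-0.57, SE 0.08, adjusted P = 1.58e-05, or 1.48-fold lower) and the combination (-0.72, SE 0.08, adjusted P = 1.09e-06, or 1.64-fold lower). The combination was not significantly different from vemurafenib (-0.15, 95% confidence interval -0.32 to 0.03, adjusted P = 0.47), although the libraries did not overlap.

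TCF7L2 (ENSG00000148737.16, chr10:112950250-113167678, plus strand) was at 36.93, 31.34 and 35.99 CPM with DMSO, 46.7, 37.14 and 38.78 CPM with tretinoin, 28.0, 26.17 and 31.67 CPM with vemurafenib, and 25.15, 26.95 and 28.02 CPM with the combination. The tretinoin libraries stood above all others, and vemurafenib overlapped with DMSO in 1 library. The fall was small with vemurafenib (-0.28, SE 0.10, adjusted P = 0.0238) and with the combination (-0.38, SE 0.10, adjusted P = 0.00387), and larger for the combination relative to tretinoin (-0.61, SE 0.10, adjusted P = 6.54e-05). The rise with tretinoin alone did not pass the test (0.23, 95% confidence interval 0.02 to 0.44, adjusted P = 0.173), and neither did the interaction (-0.32, -0.62 to -0.03, unadjusted P = 0.0336, adjusted P = 0.282). Under total-count scaling the vemurafenib difference was -0.09 and the combination difference -0.22, and neither was called. The vemurafenib call was also lost without DMSO replicate 1 or 3 or vemurafenib replicate 1 or 2, and with at least 10 counts required in every library (adjusted P over all alternatives 0.010 to 0.51).

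TCF7 (ENSG00000081059.19, chr5:134114711-134151865, plus strand), which encodes TCF1, was at 4.640, 4.661 and 5.699 CPM with DMSO, 6.085, 5.405 and 4.163 CPM with tretinoin, 5.038, 6.303 and 5.108 CPM with vemurafenib, and 5.227, 5.017 and 5.116 CPM with the combination. All groups overlapped with DMSO. It was not called in any comparison, and the largest difference from DMSO was that of vemurafenib (0.13, 95% confidence interval -0.21 to 0.47, adjusted P = 0.515). The lower end of this interval lay above the log2 fold changes of the 7 called members, but the interval overlapped that of TCF7L2 (-0.495 to -0.074). Whether TCF7 differed from the other members was not tested. Exons of other genes cover 2.09% of the TCF7 exon bases (SKP1), 5.20% of those of LEF1 (LEF1-AS1) and 4.45% of those of TCF7L2, and fragments there were assigned to neither gene.

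WNT5A (ENSG00000114251.14, chr3:55465715-55490539, minus strand) was at 57.55, 62.08 and 62.85 CPM with DMSO, 59.16, 51.84 and 54.06 CPM with tretinoin, 44.3, 47.2 and 41.28 CPM with vemurafenib, and 36.59, 41.21 and 40.29 CPM with the combination. Libraries with vemurafenib were below all libraries without it, and the combination libraries were lowest by a narrow margin. WNT5A fell with vemurafenib (-0.46, SE 0.08, adjusted P = 8.39e-05, or 1.37-fold lower) and with the combination (-0.63, SE 0.08, adjusted P = 2.57e-06, or 1.54-fold lower). The further difference between both did not pass the test over all genes (-0.17, 95% confidence interval -0.33 to -0.01, unadjusted P = 0.0431, adjusted P = 0.327), and tretinoin alone did not either (-0.15, -0.31 to 0.01, adjusted P = 0.264).

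**Figure D3:**
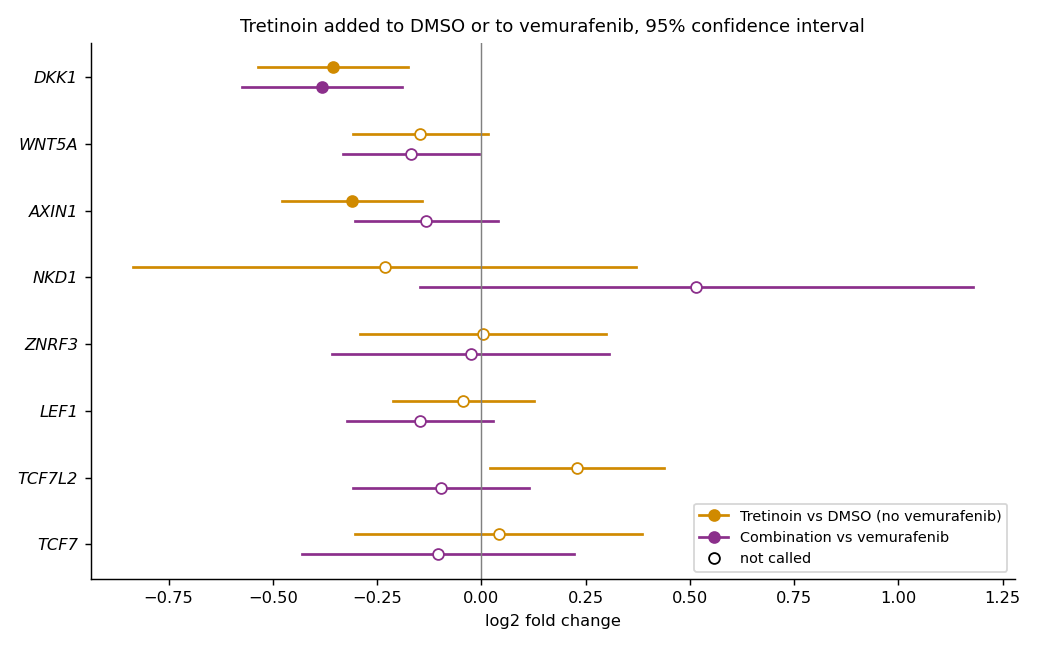
Log2 change on addition of tretinoin (horizontal axis) for the 8 tested members, either relative to DMSO or relative to vemurafenib, with 95% confidence intervals and filled points for adjusted P below 0.05. DKK1 is filled in both (-0.36 and -0.38), AXIN1 only relative to DMSO (-0.31 and -0.13), a difference that was not significant (interaction adjusted P = 0.459).

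Across the 12 libraries, log2 CPM of DKK1 followed that of WNT5A (Pearson r = 0.97), LEF1 (0.96), AXIN1 (0.95) and ZNRF3 (0.94), whereas TCF7 had r between -0.23 and -0.02 with the other tested members. These are descriptions over libraries that share treatment and depth. Among the tested genes with the profile most like that of DKK1 were HK2 (r = 0.995) and DOK7 (0.992), out of 1842 genes with r over 0.9. The nearest genes for AXIN1 were LRRFIP1 (0.994), ANXA1 and FKBP4 (both 0.991), for LEF1 MALT1 (0.991), TATDN2 and KANK1 (both 0.989), for WNT5A CAMKK2 (0.985), DYRK2 (0.983) and ATL2 (0.978), and for ZNRF3 SH3GL1 (0.987), BNC1 (0.984) and BMP2 (0.982). Fewer genes resembled TCF7L2 (169 over 0.9, led by ATAD5 at 0.963, DENND4B at 0.955 and KAT2A at 0.953) and NKD1 (4 over 0.9, led by ZNF256 at 0.923, ZNF746 at 0.914 and ZNF696 at 0.902). No gene exceeded 0.9 with TCF7, the nearest being REV3L (0.844), PBRM1 (0.842) and KNL1 (0.837).

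The other genes of the pathway were taken from a list of 81 genes, 57 of them tested. In this wider list 17 genes rose and 27 fell with vemurafenib (median log2 fold change -0.09), beside 26.4% higher and 26.3% lower among all genes tested. With the combination 15 rose and 25 fell (median -0.18), beside 27.1% and 26.5%. With tretinoin alone 3 rose and 4 fell (median 0.03), beside 3.48% and 2.20%, and for the combination relative to vemurafenib 2 rose and 5 fell (median -0.07), beside 2.27% and 2.20%. The interaction was called positive for 0 and negative for 1 gene, FZD8 (median -0.08), beside 0.382% and 0.424%. Under total-count scaling the calls were 20 higher and 18 lower for vemurafenib, beside 39.3% higher and 15.7% lower among all genes. For the combination they were 19 higher and 21 lower, beside 37.3% and 17.4%. The balance of directions thus depended on the scaling, in this list and among all genes alike.

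Among the ligands and the genes for their secretion, 11 of 20 were tested, and 3 rose and 4 fell with vemurafenib and likewise with the combination (4 and 4 in both under total-count scaling). Of all genes tested, 26.4% rose and 26.3% fell with vemurafenib, and 27.1% and 26.5% with the combination. WNT6 increased from 0.812 ± 0.474 CPM with DMSO to 11.3 ± 1.35 CPM with vemurafenib (log2 fold change 3.82, SE 0.24, adjusted P = 5.03e-10), and was lower with the combination than with vemurafenib (6.28 ± 0.295 CPM, -0.84, SE 0.17, adjusted P = 0.00408). WNT10B changed the other way, from 15.0 ± 0.748 CPM with DMSO to 5.72 ± 0.229 CPM with vemurafenib (-1.39, SE 0.10, adjusted P = 5.73e-09) and 3.80 ± 0.299 CPM with the combination (-1.98, SE 0.11, adjusted P = 9.26e-11). WNT7B fell with the combination (-1.39, SE 0.20, adjusted P = 1.79e-05). WNT5B, the closest relative of WNT5A, was lower with vemurafenib (-1.66, SE 0.26, adjusted P = 4.55e-05) and with the combination (-1.17, SE 0.24, adjusted P = 0.000645), as was WLS, which carries Wnt proteins to the membrane (-0.62 and -0.54, SE 0.07 each, adjusted P = 1.16e-06 and 5.69e-06). WNT16 had a combination call (1.43, SE 0.48, adjusted P = 0.0194), but its libraries overlapped with DMSO and the call was lost without DMSO replicate 1 or 3 or combination replicate 2. The 9 ligands not tested, among them WNT1 and WNT3A, had at most 16 counts in a library.

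Of 22 genes of receptors and their partners, 16 were tested, of which 3 rose and 11 fell with vemurafenib, 2 rose and 9 fell with the combination, and 2 rose and 3 fell with tretinoin (4 and 7, 3 and 8, and 2 and 3 under total-count scaling). The shares of all genes in the same order were 26.4% and 26.3%, 27.1% and 26.5%, and 3.48% and 2.20%. Whether these receptor counts differ from those of other genes of like level was not tested, and the share of all genes called lower with vemurafenib reached 47.4% in the highest bin of level against 26.3% of all genes. FZD8 decreased from 70.4 ± 3.23 CPM with DMSO to 50.6 ± 3.64 with tretinoin, 29.2 ± 1.22 with vemurafenib and 14.1 ± 0.472 with the combination (-2.32 relative to DMSO, SE 0.08, adjusted P = 1.27e-13). FZD9 went from 8.52 ± 0.959 CPM with DMSO to 4.33 ± 0.717 with vemurafenib and 3.99 ± 0.740 with the combination. LRP5, the DKK1-binding co-receptor, fell with vemurafenib (-0.67, SE 0.07, adjusted P = 2.32e-07) and the combination (-0.85, SE 0.07, adjusted P = 1.18e-08), and LRP6 did not pass the test in either (-0.09 and -0.18). ROR1, a receptor for WNT5A, increased with tretinoin (1.05, SE 0.17, adjusted P = 0.00117) and decreased with vemurafenib (-2.23, SE 0.23, adjusted P = 2.97e-07) and the combination (-1.06, SE 0.20, adjusted P = 0.000206), whereas ROR2 was not called relative to DMSO. RYK, another WNT5A receptor, fell with the combination (-0.55, SE 0.07, adjusted P = 4.69e-06). Of the R-spondin receptors that restrain ZNRF3 and RNF43, LGR4 was higher (1.19, SE 0.17, adjusted P = 9.75e-06) and LGR5 lower (-1.98, SE 0.30, adjusted P = 3.11e-05) with the combination relative to DMSO, and the 4 R-spondin genes had too few counts to be tested.

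**Figure D4:**
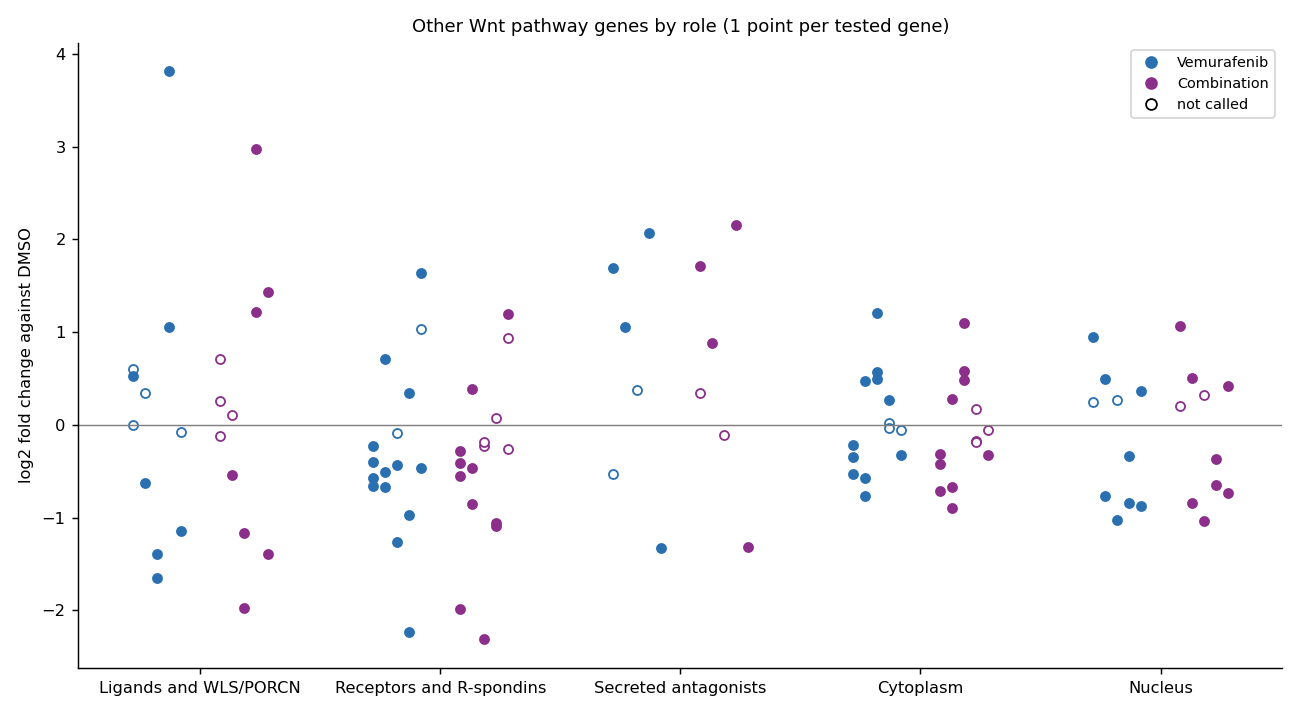
Log2 fold change relative to DMSO (vertical axis) of the tested genes of the wider pathway list by role (horizontal axis), with vemurafenib in blue and the combination in purple, and filled points for adjusted P below 0.05. The receptors have 11 filled blue points below 0 and 3 above, and the uppermost blue point is WNT6 (3.82).

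Among the secreted antagonists other than DKK1, 6 of 14 were tested, and 3 rose and 1 fell with vemurafenib and with the combination (4 and 1 in both under total-count scaling). Beside these counts, 26.4% of all genes rose and 26.3% fell with vemurafenib, and 27.1% and 26.5% with the combination. DKK3, a distant relative of DKK1, went from 15.0 ± 2.02 CPM with DMSO to 48.2 ± 3.05 CPM with vemurafenib (1.69, SE 0.10, adjusted P = 1.66e-10), opposite in direction to DKK1. KREMEN1, a receptor that binds DKK1, was also higher with the combination (0.88, SE 0.17, adjusted P = 0.000283), as was NOTUM, which removes the lipid of Wnt proteins (2.15, SE 0.31, adjusted P = 1.54e-05, 1.74 ± 0.218 CPM). SFRP1, which binds Wnt ligands outside the cell, fell from 223.1 ± 15.6 to 89.1 ± 1.62 CPM with vemurafenib (-1.32, SE 0.08, adjusted P = 2.63e-10).

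All 14 cytoplasmic genes of the list were tested, of which vemurafenib raised 5 and lowered 6, and the combination raised 4 and lowered 6 (5 and 2, and 5 and 4, under total-count scaling). Shares among all genes were 26.4% higher and 26.3% lower with vemurafenib, and 27.1% and 26.5% with the combination. CTNNB1, which encodes beta-catenin, fell with vemurafenib (-0.35, SE 0.08, adjusted P = 0.000972, not called under total-count scaling) and with the combination (-0.42, SE 0.08, adjusted P = 0.000178). NKD2, the relative of NKD1, fell with both (-0.76, SE 0.19, adjusted P = 0.00277, and -0.68, SE 0.19, adjusted P = 0.00554). DVL1, a Dishevelled gene, fell with the combination (-0.90, SE 0.08, adjusted P = 3.17e-08), as did AMER1, which takes part in the destruction complex (-0.71, SE 0.14, adjusted P = 0.000256), whereas APC2 rose (1.09, SE 0.13, adjusted P = 1.55e-06).

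In the nucleus, 10 of 11 genes were tested, and 3 rose and 5 fell with vemurafenib and with the combination (3 and 4 in both under total-count scaling). For comparison, 26.4% of all genes rose and 26.3% fell with vemurafenib, and 27.1% and 26.5% with the combination. BCL9, a co-activator that binds beta-catenin, was higher with the combination (1.06, SE 0.10, adjusted P = 7.27e-08) and with tretinoin alone (0.48, SE 0.10, adjusted P = 0.00895, lost without DMSO replicate 2). CTNNBIP1, an inhibitor that keeps beta-catenin from TCF factors, was lower with the combination (-1.03, SE 0.10, adjusted P = 1.09e-07), as were the co-repressors TLE1 (-0.84, SE 0.09, adjusted P = 2.44e-07) and TLE4 (-0.74, SE 0.08, adjusted P = 3.38e-07). TCF7L1, the remaining TCF/LEF gene, was not called relative to DMSO (0.25 with vemurafenib, SE 0.25, adjusted P = 0.427). SP5, a direct beta-catenin target, had at most 4 counts in a library.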

How the data were processed

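RNA-seq counts of 12 A375 libraries were analyzed. Per the labels and methods, the authors enriched poly(A) RNA, prepared strand-specific paired-end libraries, aligned reads with STAR 2.5.3a to GRCh38 (p10) and counted fragments over GENCODE 27 exons (union mode), without regard to strand. The deposited values are raw counts per gene, not normalized. In union mode, fragments over exons of 2 counted genes counted for neither. Because strand was ignored, this included genes on opposite strands.

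Groups were taken from the sample labels. Gene names, positions and exon lengths came from GENCODE 29, promoter windows from RefSeq (GRCh38.p14). Genes were filtered by filterByExpr (edgeR 4.0.16, R 4.3.3) and normalized by TMM, and 1 quasi-likelihood model with a term per group was fitted to all 12 libraries. Contrasts were tested with Benjamini-Hochberg adjustment over 16740 genes at a threshold of 0.05. SE is the size of the log2 fold change divided by the square root of F. AXIN2 and RNF43 were taken from a fit of genes with at least 1 count. Total counts of 13510235 to 21534377 leave genes with few counts imprecise. The model was tested on simulated data. Promoters were searched for the letters given in the text. Other steps used Python 3.11.15 with pandas 2.3.3.

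Named were all 10 members, in each role of the wider list the called genes changed most by the combination (at most 4) and genes in one step with a member, the 3 genes most like each member by Pearson r of log2 CPM (1 of these is not reported here), and DUSP6 and RARB as treatment checks. The members and lists were chosen with earlier results of these data known. Alternatives were DESeq2 (1.42.0) with and without a prior, its size factors in edgeR, total-count scaling, no filter, at least 10 counts in every library, the replicate block, only the groups compared, each replicate left out, and an adjusted P threshold of 0.1.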

Additional observations from a re-analysis of the deposited data

Results flagged for a closer look

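1 result of the wider pathway list was picked out because the effect of tretinoin differed with and without vemurafenib by a test of the difference itself. Of the 57 tested genes of that list, 1 had a negative and 0 a positive interaction, beside 0.424% and 0.382% of all genes. FZD8, a Frizzled receptor gene, had an interaction of -0.567 on the log2 scale (SE 0.11, edgeR quasi-likelihood test, adjusted P = 0.0158). Tretinoin lowered it by a log2 fold change of -0.48 relative to DMSO and by -1.05 relative to vemurafenib. The mean level was 70.4 ± 3.23 CPM with DMSO, 50.6 ± 3.64 with tretinoin, 29.2 ± 1.22 with vemurafenib and 14.1 ± 0.472 with the combination (SD, n = 3 each). The call was lost without DMSO replicate 2 (-0.53, adjusted P = 0.0524) or vemurafenib replicate 3 (-0.53, adjusted P = 0.0502), within a range of -0.61 to -0.53 over the fits that left out 1 library. Its cause was not tested.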

How the results depend on the processing

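The falls of AXIN1, LEF1, DKK1, WNT5A and ZNRF3 with vemurafenib, with the combination relative to DMSO and with the combination relative to tretinoin were called in all 14 alternatives tried for each, as was the fall of NKD1 with vemurafenib. The tretinoin calls were less stable: of the 2 members lower with tretinoin, 0 were called under total-count scaling, 1 with the replicate block (DKK1), 1 with only the groups compared, and 0 to 2 when 1 library was left out (0 without DMSO replicate 2 or 3). Tretinoin replicate 1 stood apart from its group by a chi-square of counts per degree of freedom between 2 libraries. That value was 20.1 with replicate 2 and 23.0 with replicate 3, and 2.62 between replicates 2 and 3. The 1 member lower with the combination relative to vemurafenib became 0 to 1 when 1 library was left out. Replicate numbers did not pair the samples (deviations of 18 same-numbered pairs had r between -0.143 and 0.0872), and the replicate block left the other counts of members at 7, 6, 1, 6 and 0. Total-count scaling moved the median of all genes by 0.20 with vemurafenib, 0.16 with the combination and -0.10 for the interaction (log2).

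Differences near 0, none of them called, changed sign. ZNRF3 with tretinoin was -0.006 with DESeq2 size factors, -0.010 with no filter and -0.002 with DESeq2 with or without a prior (-0.111 to 0.110 leaving out 1 library). LEF1 with tretinoin was 0.029 under total-count scaling (-0.083 to 0.012). TCF7 for the combination relative to tretinoin was 0.074 under total-count scaling and 0.023 with at least 10 counts (-0.162 to 0.098), and leaving out 1 library gave -0.064 to 0.187 with tretinoin, -0.027 to 0.138 with the combination and -0.167 to 0.012 for the combination relative to vemurafenib. The interaction with no filter was 0.004 for DKK1 (-0.156 to 0.063 leaving out 1 library), 0.007 for WNT5A (-0.070 to 0.026) and 0.003 for ZNRF3 (-0.172 to 0.085). ZNRF3 for the combination relative to vemurafenib was -0.165 to 0.079. The causes were not tested.

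Over all genes, 951 were called with tretinoin, 1540 with no filter, 313 with only the groups compared, 378 without DMSO replicate 2 and 1715 at a threshold of 0.1. For the combination relative to vemurafenib, 749 became 1268 with only the groups compared and 458 to 589 leaving out 1 library. For the interaction, 135 became 610 with no filter, 75 with the replicate block, and 276 and 277 with DESeq2 without and with a prior. It became 57 to 283 leaving out 1 library (283 without tretinoin replicate 1) and 269 at a threshold of 0.1. In the wider list 115 values of calls fell short of the threshold under an alternative and 0 reversed. AXIN2 (1 to 11 counts) and RNF43 (0 to 6) rest on few counts per library.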
